A study of Mus musculus with 15 samples.

Results

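Acute phase proteins are plasma proteins whose liver output changes during inflammation. The 10 genes described here were chosen by name: Saa1, Saa2, Saa3 and Saa4 (serum amyloid A), Orm1, Orm2 and Orm3 (orosomucoid, or alpha-1-acid glycoprotein), Hp (haptoglobin), Lcn2 (lipocalin 2) and Crp (C-reactive protein). All 10 were found among the 57132 gene identifiers of the count table, and all 10 passed the filter on low counts that left 18181 genes for testing. RNA-seq was run on bulk liver of C57BL/6J males that were 8 weeks old at the start and were killed after 18 weeks on their diet. Chow mice ate standard chow (4 libraries). Vehicle mice (5 libraries) ate the CDA-HFD, a high-fat diet that is choline-deficient and amino-acid adapted, and in the last 6 weeks had daily intraperitoneal injections of the vehicle, 15% Kolliphor ELP in saline. SR9009 mice (5 libraries) ate the same diet and received SR9009, which activates the REV-ERB repressors of the circadian clock, at 100 mg/kg per day on the same schedule. Whether the Chow group was injected is not stated in the labels, so effects of diet and of injection cannot be told apart. The labels number the libraries of a group without saying how mice and libraries correspond, so p-values measure the spread between these libraries.

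Hepatocytes make most circulating acute phase proteins. Interleukin-6 and related cytokines act through STAT3, and interleukin-1 and tumour necrosis factor through NF-kB and C/EBP factors, to raise transcription of the positive acute phase genes, while genes such as albumin fall. In mice Saa1 and Saa2 are strongly inducible apolipoproteins of high-density lipoprotein, whereas Saa4 is made constitutively and Crp, a major reactant in humans, responds weakly. Saa3 and Lcn2 are also expressed outside hepatocytes, Saa3 in macrophages and fat, and Lcn2, which binds the iron carriers of bacteria, in neutrophils.

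Upstream sequences are printed for 6 of the genes because they show which of the genes are close copies of each other. Each line gives the 190 bases before the annotated start in RefSeq (GRCm38.p6), 5′ to 3′ on the gene's own strand. Capitals mark matches, on either strand, to the C/EBP pattern TTNNGNAA that lie wholly within the printed bases. Saa1, Saa2, Saa3 and Saa4 lie close together on chromosome 7 and Orm2 and Orm3 on chromosome 4.
Saa1, chr7:46742981-46743170, minus strand: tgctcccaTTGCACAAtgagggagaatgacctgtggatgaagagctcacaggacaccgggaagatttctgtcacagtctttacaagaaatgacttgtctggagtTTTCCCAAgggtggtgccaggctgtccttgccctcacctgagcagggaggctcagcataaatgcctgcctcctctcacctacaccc
Saa2, chr7:46751643-46751832, plus strand: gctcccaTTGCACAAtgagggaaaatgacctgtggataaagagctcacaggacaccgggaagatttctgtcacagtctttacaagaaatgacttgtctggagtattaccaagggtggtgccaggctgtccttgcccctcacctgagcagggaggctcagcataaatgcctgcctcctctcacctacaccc
Saa3, chr7:46715677-46715866, minus strand: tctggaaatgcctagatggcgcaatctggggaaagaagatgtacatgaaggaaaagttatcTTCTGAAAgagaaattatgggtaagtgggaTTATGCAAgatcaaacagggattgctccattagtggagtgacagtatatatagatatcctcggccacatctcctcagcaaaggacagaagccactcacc
Saa4, chr7:46732604-46732793, minus strand: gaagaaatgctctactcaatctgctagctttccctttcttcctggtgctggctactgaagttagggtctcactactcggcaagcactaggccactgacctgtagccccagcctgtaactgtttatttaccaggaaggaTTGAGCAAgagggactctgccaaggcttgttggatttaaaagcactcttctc
Orm2, chr4:63362259-63362448, plus strand: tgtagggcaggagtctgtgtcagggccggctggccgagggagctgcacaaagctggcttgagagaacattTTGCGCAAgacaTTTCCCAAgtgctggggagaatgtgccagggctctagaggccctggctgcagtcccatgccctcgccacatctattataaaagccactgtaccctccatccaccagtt
Orm3, chr4:63355968-63356157, plus strand: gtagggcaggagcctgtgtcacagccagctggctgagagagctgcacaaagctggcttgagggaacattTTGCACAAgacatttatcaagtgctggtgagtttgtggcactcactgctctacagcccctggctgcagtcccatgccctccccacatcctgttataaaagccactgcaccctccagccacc

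Over the full 250 upstream bases, Saa1 and Saa2 matched at 238 of 251 aligned positions (94.8%) and Orm2 and Orm3 at 219 of 255 (85.9%). Saa1 matched Saa3 at 52.5% and Saa4 at 47.1%, and the 26 pairs other than these close ones ranged from 46.7% to 55.5%. Upstream sequence was found for 8 of the 10 genes. The C/EBP pattern was present in 8 of 8, against 36.8% of the 32851 mouse promoters of the same length. The glucocorticoid receptor core pattern TGTTCT was present in 2 of 8 (Orm2 and Crp), against 16.1% of all promoters. The STAT pattern TTCNNNGAA (7.02% of all), the NF-kB pattern GGGANTTTC (0.941%), the HNF1 core pattern GTTAAT (6.43%) and the REV-ERB pattern TAGGTCA (2.23%) were in none of the 8. These matches describe letters within this window on both strands and say nothing of binding.

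The libraries held between 29950509 and 45542335 counts. Levels are given as CPM (each library's counts brought to the same total, with TMM factors). The 10 genes together took between 0.302% and 0.318% of all counts in Chow replicates 1 to 3, 1.04% in Chow replicate 4, 0.505% to 1.05% in Vehicle and 0.803% to 1.04% in SR9009. The defining hepatocyte marker Alb was abundant in every group, with 85465 CPM in Chow, 58989 CPM in Vehicle and 51297 CPM in SR9009 on average, as the liver label implies. In these bulk samples fewer cells of a type and less RNA per cell cannot be told apart.

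A pair of libraries stood apart from their groups in these genes, and they affect most of the comparisons. Chow replicate 4 was the highest Chow library for 9 of the 10 genes, against 26.0% of all tested genes, and was at least 2-fold above the next Chow library for 6 of them, against 2.96% of all tested genes. Its Saa2 level was 60.8 times the mean of the other 3 Chow libraries, its Lcn2 level 33.9 times, its Saa1 level 29.2 times and its Orm2 level 16.4 times. Crp was the exception, at 0.898 times that mean. Among 20 other tested positive acute phase genes Chow replicate 4 was highest for 14 and at least 2-fold above the next library for 5 (Hpx, Lbp, Fgl1, Mt1 and Il1rn, listed after their values were seen). It was also the highest Chow library for 10 of 12 neutrophil markers, whose summed level was 18.4 CPM in it and 3.84 to 4.97 CPM in the others. Several of these markers rested on few reads, such as Ngp at 0.247 CPM and Mpo at 0.0824 CPM in Chow replicate 4. Macrophage markers were highest in it for 7 of 10, with a summed level of 577 CPM beside 172 to 295 CPM. Vehicle replicate 1 was the highest Vehicle library for 9 of the 10 genes, against 18.9% of all tested genes, with Saa2 at 4.94 times and Saa1 at 4.70 times the mean of the other 4. Its summed neutrophil markers, 48.4 CPM, were not the highest of its group: Vehicle replicate 2 had 133 CPM and was the lowest Vehicle library for 7 of the 10 genes. Vehicle replicate 1 was the highest of its group for 7 of 10 macrophage markers (summed 2761 CPM) and 6 of 7 mesothelial markers (summed 50.9 CPM). The part of these cells in the levels was not tested. Each comparison is therefore given with and without these libraries. They were singled out by the levels of these same genes, so the results without them are a description of what each library contributes and no independent evidence.

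**Figure D1:**
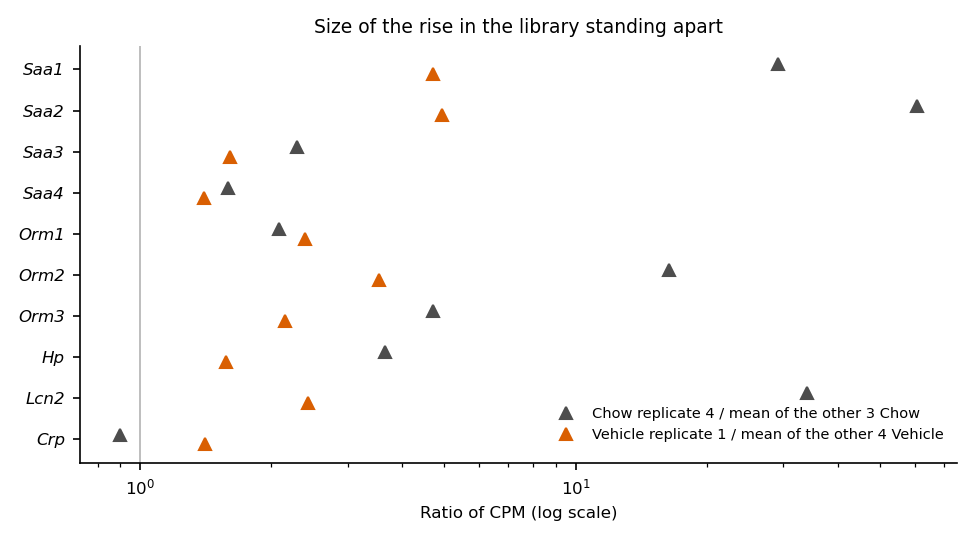
Ratio of the CPM in Chow replicate 4 to the mean of the other 3 Chow libraries (grey) and in Vehicle replicate 1 to the mean of the other 4 Vehicle libraries (orange), on a log axis, for each of the 10 genes. The ratios reach 60.8 for Saa2 in Chow and 4.94 for Saa2 in Vehicle, and only Crp in Chow lies below 1.

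Vehicle and Chow livers were compared to see how the 10 genes stood after the diet and the vehicle injections. Lcn2, Saa3 and Orm2 were higher in Vehicle and Saa4 and Crp were lower, so 3 of 10 genes rose and 2 fell at an adjusted p below 0.05 (edgeR quasi-likelihood test, Benjamini-Hochberg over 18181 genes). The background was 29.8% of all tested genes higher and 25.4% lower. The share of the 10 genes called was thus close to the background in both directions. The median log2 fold change of the 10 was 0.04, beside 0.02 over all tested genes. Without Chow replicate 4, 7 rose and 2 fell, with a background of 28.7% higher and 23.4% lower, and the median log2 fold change was 1.98. Without Vehicle replicate 1, 2 rose and 3 fell, with a background of 28.5% higher and 24% lower, and the median was -0.44. With both libraries left out 7 rose, with a background of 27.5% higher. Both were singled out by their levels of these same genes, so counts without them cannot be compared with these backgrounds.

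SR9009 and Vehicle livers were compared to see how the genes stood after SR9009 on the same diet. None of the 10 genes passed an adjusted p of 0.05 in either direction with edgeR. With DESeq2 none passed either, but DESeq2 gave no adjusted p for Lcn2. The background was 0.165% of all tested genes higher and 0.077% lower. At an unadjusted p below 0.05 there were 2 genes, Orm1 and Orm3, where the background was 7.28%. The estimate was above 0 for 9 of the 10, with a median log2 difference of 0.83 beside 0.00 over all tested genes. Without Vehicle replicate 1 no gene was called, with a background of 0.134% higher and 0.0167% lower, and 4 had an unadjusted p below 0.05, with a background of 7.23%. Without Vehicle replicate 1 and Chow replicate 4, Orm1 and Orm2 were called higher, with a background of 0.156% higher, and 8 genes had an unadjusted p below 0.05, with a background of 7.24%. Chow replicate 4 entered this comparison because the 3 groups shared an estimate of the spread. Both libraries were singled out by their levels of these same genes, so leaving them out favours these genes by construction. Counts without them cannot be compared with these backgrounds.

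**Figure D2:**
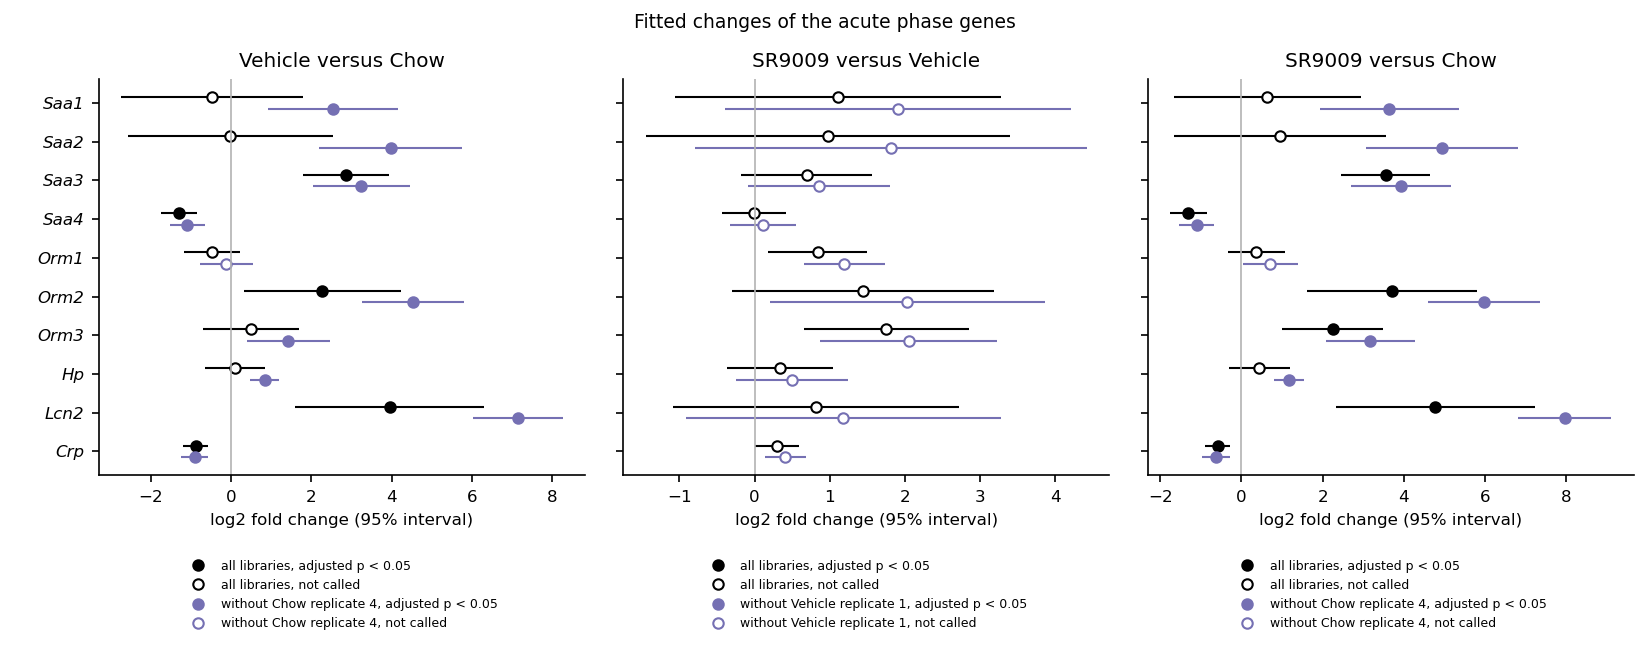
Fitted log2 fold changes with 95% intervals for the 10 genes in the 3 comparisons, with all libraries (black) and without Chow replicate 4 or Vehicle replicate 1 (purple), filled where the adjusted p was below 0.05. In Vehicle versus Chow the filled points number 3 higher and 2 lower with all libraries, and 7 higher and 2 lower without Chow replicate 4.

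Saa1 and Saa2 encode the inducible serum amyloid A proteins. Saa1 (ENSMUSG00000074115.6) was at 23.9, 38.0, 49.4 and 1082 CPM in Chow replicates 1 to 4. It was at 579, 74.0, 93.9, 149 and 176 CPM in Vehicle replicates 1 to 5, and at 268, 511, 849, 239 and 442 CPM in SR9009 replicates 1 to 5. Chow replicate 4 was thus above every other library, while the remaining Chow libraries were below all the diet-fed ones. The means were 298 ± 523 (SD, n = 4), 214 ± 208 (SD, n = 5) and 462 ± 245 CPM (SD, n = 5). Saa1 in Vehicle did not differ beyond this spread from Chow (log2 fold change -0.48, SE 1.04, adjusted p = 0.723). It was 5.80-fold higher without Chow replicate 4 (95% interval 1.90 to 17.8, adjusted p = 0.0126). In SR9009 it was 2.15 times the Vehicle level, with an interval of 0.478 to 9.70 (adjusted p = 0.911). This ratio was 3.75 without Vehicle replicate 1 (interval 0.762 to 18.4, adjusted p = 0.777) and 3.74 with both outlying libraries left out (interval 1.98 to 7.06, adjusted p = 0.171).

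Saa2 (ENSMUSG00000057465.6) followed Saa1. In Chow its levels were 6.56, 6.90, 7.65 and 428 CPM, and in Vehicle 305, 40.7, 40.7, 74.4 and 91.2 CPM. In SR9009 they were 135, 249, 384, 99.9 and 218 CPM. Chow replicates 1 to 3 were nearly level and below every diet-fed library. Vehicle and Chow did not differ beyond the spread with all libraries (log2 fold change -0.02, SE 1.17, adjusted p = 0.99; 0.03 with upper quartile scaling), and the estimate was 3.98 (15.7-fold, adjusted p = 0.00155) without Chow replicate 4. SR9009 was at 1.97 times Vehicle, with an interval of 0.366 to 10.6 (adjusted p = 0.939), and at 3.52 times without Vehicle replicate 1 (adjusted p = 0.846). Saa1 made up 71.7% to 86.6% of the Saa1 and Saa2 counts in Chow, 64.5% to 69.8% in Vehicle and 66.5% to 70.5% in SR9009. The labels do not give how reads shared by these near copies were counted. Of the 100-base windows of GENCODE transcripts, 8.96% of those of Saa1 also occurred in Saa2.

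Saa3 (ENSMUSG00000040026.9) rose in Vehicle whichever library was left out. It was at 2.00, 2.95, 2.75 and 5.90 CPM in Chow, at 35.0, 8.75, 17.2, 24.5 and 36.4 CPM in Vehicle, and at 33.3, 38.7, 31.2, 21.8 and 71.7 CPM in SR9009. All 10 diet-fed libraries were above all 4 Chow libraries, and Vehicle and SR9009 overlapped. Vehicle was 7.26-fold above Chow (interval 3.44 to 15.3, log2 fold change 2.86, SE 0.50, adjusted p = 0.000294). SR9009 was at 1.61 times Vehicle (interval 0.883 to 2.95, adjusted p = 0.80). Macrophage markers were also higher in Vehicle than in Chow: 9 of 10 rose and none fell, against 29.8% of all tested genes higher. Their summed level was 172 to 577 CPM in Chow. It was 2761, 2226, 2515, 1829 and 2036 CPM in Vehicle replicates 1 to 5, and 1887, 2144, 1719, 2166 and 1957 CPM in SR9009 replicates 1 to 5. Within both diet-fed groups the order of these sums differed from that of Saa3. The part of macrophages in the Saa3 level was not tested.

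Saa4 (ENSMUSG00000040017.9), the constitutive member, fell. It was at 364, 340.1, 349.7 and 560.0 CPM in Chow, at 213, 94.5, 138, 181 and 191 CPM in Vehicle, and at 185, 129.8, 181, 143 and 176 CPM in SR9009. Every diet-fed library was below every Chow library. Saa4 was 2.47-fold lower in Vehicle than in Chow (log2 fold change -1.30, SE 0.21, adjusted p = 1.0e-04), and 2.14-fold lower without Chow replicate 4 (adjusted p = 0.000396). Vehicle and SR9009 had the same mean to 3 digits, 163 ± 47.1 and 163 ± 25.0 CPM (SD, n = 5 each). The SR9009 to Vehicle ratio of 0.997 had an interval of 0.742 to 1.34.

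**Figure D3:**
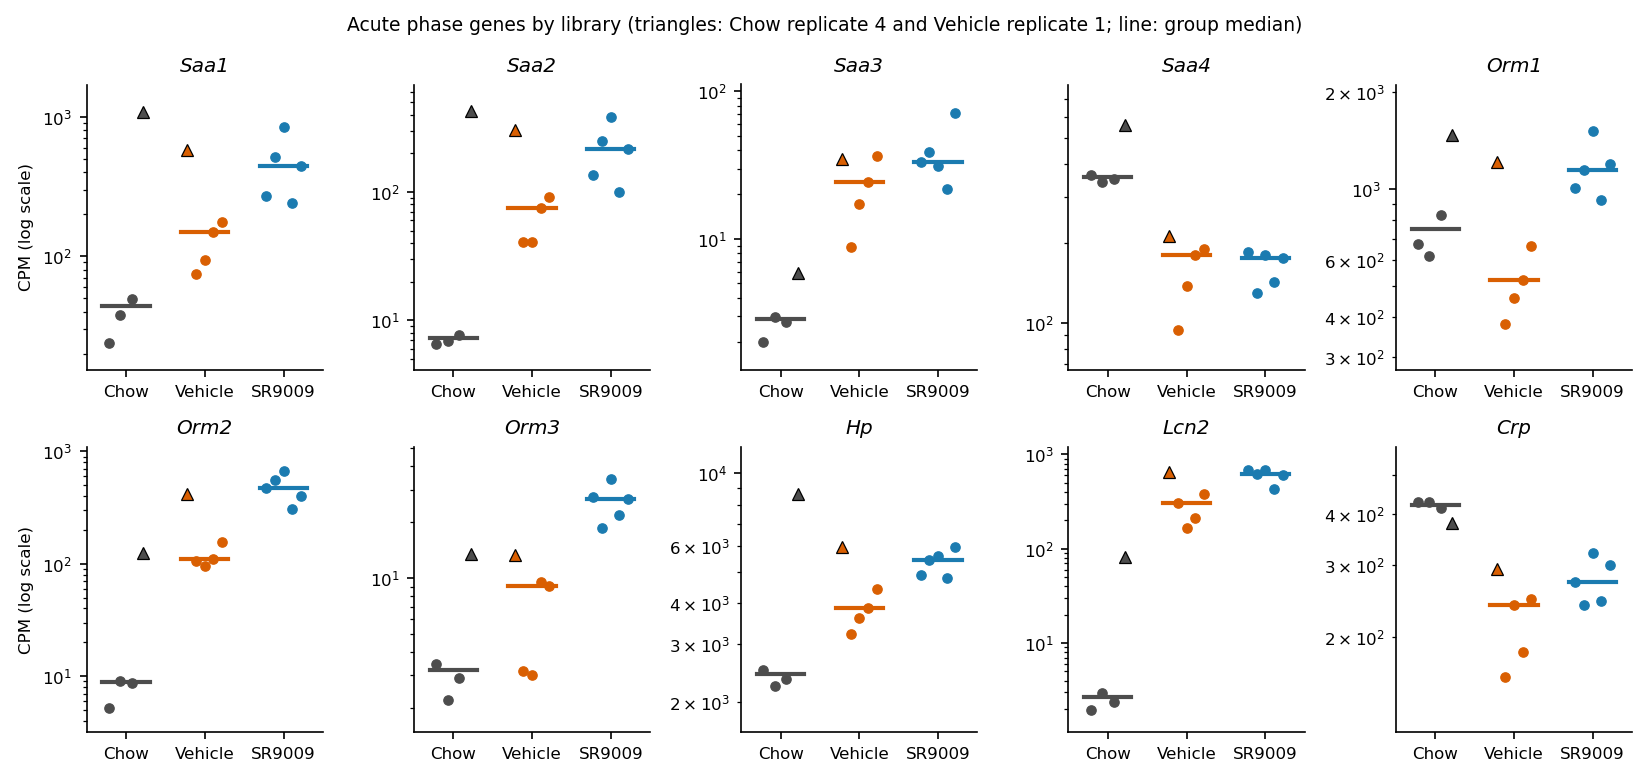
CPM of each of the 10 genes in the 14 libraries, on log axes that differ between panels; lines are group medians and triangles mark Chow replicate 4 and Vehicle replicate 1. Saa4 and Crp in the diet-fed libraries lie below all Chow libraries, Saa3 and Lcn2 lie above them, and Orm3 in SR9009 lies above every Vehicle library.

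The orosomucoids are lipocalins of plasma that bind drugs and modulate immunity. Orm1 (ENSMUSG00000039196.3), the most abundant of them, was at 672, 618, 829 and 1475 CPM in Chow, at 1212, 380.4, 458, 521 and 663 CPM in Vehicle, and at 1006, 1144, 1519, 922 and 1193 CPM in SR9009. Chow and Vehicle overlapped, and of the Vehicle libraries only replicate 1 reached the SR9009 range. Vehicle did not differ from Chow beyond the spread (log2 fold change -0.47, SE 0.32, adjusted p = 0.233). Without Vehicle replicate 1 it was 1.78-fold lower (adjusted p = 0.015). It was 1.09-fold lower without Chow replicate 4 (adjusted p = 0.761) and 1.39-fold lower without both libraries (adjusted p = 0.0551), neither of them called. SR9009 was at 1.79 times Vehicle (interval 1.13 to 2.83, unadjusted p = 0.0167), which did not pass correction (adjusted p = 0.481). With both outlying libraries left out the ratio was 2.28 (adjusted p = 0.0129).

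Orm2 (ENSMUSG00000061540.4) was low in Chow and higher in every diet-fed group. It was at 5.23, 8.99, 8.67 and 125 CPM in Chow, at 416, 106, 95.9, 111 and 157 CPM in Vehicle, and at 474, 558, 664, 306 and 403 CPM in SR9009. Chow replicate 4 fell within the Vehicle range, and Vehicle replicate 1 within that of SR9009. Orm2 rose 4.82-fold in Vehicle (interval 1.24 to 18.7, log2 fold change 2.27, SE 0.90, adjusted p = 0.0481). This call was lost when any single library other than Chow replicate 4 was left out (adjusted p from 0.0520 to 0.124). Without Chow replicate 4 the rise was 23.3-fold (interval 9.61 to 56.3, adjusted p = 4.14e-05). SR9009 was at 2.71 times Vehicle (interval 0.814 to 9.05, adjusted p = 0.779). With both outlying libraries left out it was 4.09 times (interval 2.86 to 5.84, adjusted p = 0.00305).

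Orm3 (ENSMUSG00000028359.5) was the scarcest orosomucoid and with all libraries kept the only one of the 10 genes whose SR9009 libraries were all above the Vehicle libraries, a pattern found in 0.891% of all tested genes. Without Vehicle replicate 1 this held for 7 of the 10 (Saa1, Saa2, Orm1, Orm2, Orm3, Hp and Lcn2), against 1.41% of all tested genes. That library was the highest Vehicle library for 9 of the 10 genes, but for 18.9% of all tested genes. Leaving it out thus favours these genes by construction, and the 2 shares cannot be compared. Orm3 was at 3.47, 2.20, 2.91 and 13.5 CPM in Chow, at 13.3, 3.15, 3.02, 9.53 and 9.12 CPM in Vehicle, and at 27.3, 18.7, 34.2, 21.8 and 26.8 CPM in SR9009. SR9009 was at 3.37 times Vehicle (interval 1.57 to 7.24, unadjusted p = 0.00447), but the difference did not pass correction (adjusted p = 0.299). It stayed between a log2 difference of 1.55 and 2.05 when each library was left out in turn, with adjusted p-values of up to 0.547. Vehicle and Chow overlapped (log2 fold change 0.49, SE 0.56, adjusted p = 0.478), and without Chow replicate 4 Orm3 was 2.69-fold higher in Vehicle (adjusted p = 0.0239).

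The make-up of the orosomucoid counts differed between the groups. Orm2 took 0.767% to 1.43% of the Orm1, Orm2 and Orm3 counts in Chow replicates 1 to 3 and 7.75% in Chow replicate 4 (exact 95% interval 7.48% to 8.01%, counting error only). It took 17.2% to 25.4% in Vehicle and 24.5% to 32.4% in SR9009. Every diet-fed library was thus above every Chow library, also above Chow replicate 4, while Vehicle replicate 1, the highest of its group, fell within the SR9009 range. Orm1 took 91.4% to 98.7% in Chow, 73.8% to 82.3% in Vehicle and 66.5% to 73.7% in SR9009, so that Vehicle and SR9009 came close without overlapping. Summed into a single row, the 3 orosomucoids had a log2 fold change of -0.18 in Vehicle versus Chow (adjusted p = 0.694). Of the 100-base windows of the Orm1 transcripts, 6.95% also occurred in Orm2, so some reads could be assigned to either.

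**Figure D4:**
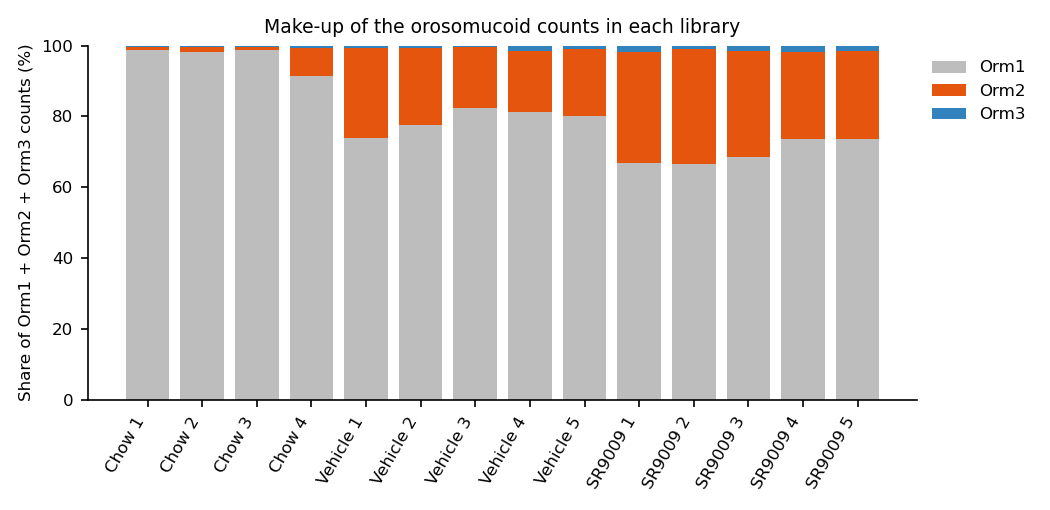
Share of the summed Orm1, Orm2 and Orm3 counts taken by each gene in each library, in percent. Orm2 takes at most 7.75% in Chow libraries, 17.2% to 25.4% in Vehicle and 24.5% to 32.4% in SR9009.

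Hp encodes haptoglobin, the plasma protein that captures free haemoglobin, and had the highest level of the 10 genes. Hp (ENSMUSG00000031722.11) was at 2506, 2244, 2356 and 8665 CPM in Chow, at 5952, 3231, 3611, 3870.1 and 4419 CPM in Vehicle, and at 4871, 5445, 5600.5, 4798 and 5966 CPM in SR9009. Chow replicate 4 was above every other library, and the other Chow libraries were below every diet-fed library. Vehicle and Chow did not differ beyond the spread (log2 fold change 0.10, SE 0.35, adjusted p = 0.831). Hp was 1.79-fold higher in Vehicle without Chow replicate 4 (interval 1.39 to 2.30, adjusted p = 0.000726). SR9009 was at 1.27 times Vehicle (interval 0.778 to 2.06, adjusted p = 0.919). By mean CPM, Hp was at rank 36 of the tested genes in Chow, 15 in Vehicle and 11 in SR9009.

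Lcn2 had the largest rise of the 10 genes. Lcn2 (ENSMUSG00000026822.15) was at 1.96, 2.92, 2.38 and 82.2 CPM in Chow, at 649, 305, 167, 213 and 382 CPM in Vehicle, and at 682, 625, 692, 429 and 599 CPM in SR9009. All diet-fed libraries were above all Chow libraries, Chow replicate 4 included. Vehicle was 15.5-fold above Chow (interval 3.03 to 79.4, log2 fold change 3.95, SE 1.08, adjusted p = 0.0078). The rise was 141-fold without Chow replicate 4 (interval 65.2 to 306, adjusted p = 1.97e-07). SR9009 was at 1.76 times Vehicle (interval 0.472 to 6.58, adjusted p = 0.935). Neutrophil markers rose in Vehicle as well, 9 of 12 with all libraries and 10 of 12 without Chow replicate 4. The background was 29.8% of all tested genes higher, and 28.7% without Chow replicate 4. Across the Vehicle libraries the summed neutrophil markers ranged from 17.9 to 133 CPM, highest in Vehicle replicate 2, which was not the library with the most Lcn2. Cholangiocyte markers rose for 9 of 9, from a summed 51.7 to 86.0 CPM in Chow to 422 to 992 CPM in Vehicle. The neutrophil marker Camp had 0 counts in all 4 Chow libraries. The part of these cells in the Lcn2 level was not tested.

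Crp (ENSMUSG00000037942.6), a pentraxin that binds phosphocholine on bacteria and dying cells, fell. It was at 428, 428, 414 and 380.3 CPM in Chow, at 293, 159, 239, 184 and 248 CPM in Vehicle, and at 272, 239.6, 320.4, 245 and 299.9 CPM in SR9009. Every diet-fed library was below every Chow library, and Chow replicate 4 was the lowest of its group. Crp was 1.84-fold lower in Vehicle than in Chow (log2 fold change -0.88, SE 0.15, adjusted p = 9.95e-05). SR9009 was at 1.23 times Vehicle (interval 0.9998 to 1.5045, unadjusted p = 0.0502, adjusted p = 0.685).

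The comparison of SR9009 with Chow shares its Chow libraries with that of Vehicle. Saa3, Orm2, Orm3 and Lcn2 rose and Saa4 and Crp fell, so 4 of 10 genes were higher and 2 lower, with a background of 30.5% higher and 25.7% lower. Lcn2 was 27.3-fold, Orm2 13.1-fold, Saa3 11.7-fold and Orm3 4.75-fold higher. Saa4 was 2.47-fold and Crp 1.5-fold lower. Without Chow replicate 4, 7 genes were higher and 2 lower, with a background of 29.4% higher and 23.3% lower, and Saa1 (12.5-fold), Saa2 (30.9-fold) and Hp (2.26-fold) were the added ones. The rise was then 249-fold for Lcn2, 63.1-fold for Orm2 and 9.06-fold for Orm3. With both outlying libraries left out 8 were higher, with a background of 29.4%. These libraries were singled out by the same genes, so counts without them cannot be compared with the backgrounds. With Chow replicate 4 alone left out, Orm1 remained uncalled at 1.64 times the Chow level (adjusted p = 0.070).

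Receptor genes known from sensory neurons (olfactory, vomeronasal and trace amine families) were detected in different numbers in the libraries, for which the labels give no reason. All Chow libraries, Vehicle replicates 4 and 5 and SR9009 replicates 1 and 3 had few such genes (50 to 113). The other 6 libraries, Vehicle replicate 1 among them, had 158 to 243. Within the libraries with few receptor genes (4 Chow, 2 Vehicle), Saa3 (log2 fold change 3.19, adjusted p = 0.0011), Saa4 (-1.11, adjusted p = 0.00478) and Crp (-0.92, adjusted p = 0.000556) kept their calls. Lcn2 (3.75, adjusted p = 0.20) and Orm2 (1.87, adjusted p = 0.415) did not, beside 3.95 and 2.27 with all libraries. This set kept Chow replicate 4, which was high in both genes, and only 2 Vehicle libraries. For SR9009 against Vehicle, the libraries with few receptor genes (2 in each group) gave Orm2 at 2.09 (adjusted p = 0.00816) and Orm3 at 1.73 (adjusted p = 0.00196). Those with many (3 in each group) gave Orm2 at 1.02 (adjusted p = 0.746) and Orm3 at 1.77 (adjusted p = 0.553). Vehicle replicate 1, the highest Vehicle library for Orm2 and Orm3, was only among those with many. In the estimates, the split can therefore not be told apart from the high levels of that library. Leaving out only Vehicle replicate 1 gave Orm2 at 2.03 (adjusted p = 0.625) and Orm3 at 2.05 (adjusted p = 0.288), so neither was called. The difference between the 2 kinds of library was not tested.

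Per length, on the scale of CPM per kilobase of the principal GENCODE transcript, the order in Vehicle ran from Hp (3135 ± 790) through Orm1 (835 ± 429), Lcn2 (375 ± 208), Saa1 (352 ± 342), Orm2 (229 ± 175), Saa2 (169 ± 170), Crp (132 ± 31.4), Saa4 (78.1 ± 22.5) and Saa3 (43.9 ± 21.2) to Orm3 (9.88 ± 5.78; SD, n = 5). Hp was above the rest beyond the spread, while Lcn2, Saa1, Orm2 and Saa2 overlapped. In SR9009 Hp (3967 ± 369) and Orm1 (1493 ± 296) led again, and Saa1 (758 ± 402), Lcn2 (662 ± 116) and Orm2 (621 ± 178) overlapped. In Chow, Saa3 (6.12 ± 3.09; SD, n = 4) and Orm3 (7.14 ± 6.90) were lowest.

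Libraries of a group varied together in most of the 10 genes. Over the 10 diet-fed libraries, after the mean of each group was subtracted, log2 CPM of Saa1 correlated with that of Saa2 at r = 0.993, Orm1 at 0.973, Hp at 0.924 and Orm2 at 0.920. Saa3 correlated with Lcn2 at 0.433 and with Saa1 at 0.628. These are descriptions over libraries that share depth, composition and the 1 outlying Vehicle library. Among 13764 genes with at least 1 CPM on average, the most similar to Saa1 were Saa2, Ambp (0.990), which encodes alpha-1-microglobulin and bikunin, and Orm1. Those nearest to Hp were Serping1 (0.980), the C1 inhibitor, Lrg1 (0.972) and Tmem176a (0.963). Saa3 was nearest to Chrna1os (0.926), Bid (0.922) and Sumf2 (0.921), and Crp to Gm11844 (0.957), Gm30238 (0.948) and Aamdc (0.934).

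Other genes of the pathway were taken from lists of known members. Of 22 further positive acute phase genes 20 were tested; 5 rose and 8 fell in Vehicle, with a median log2 fold change of -0.29. The background for this and the following lists was 29.8% higher and 25.4% lower. Of 22 tested without Chow replicate 4, 8 rose and 6 fell. Il1rn, the interleukin-1 receptor antagonist, was 19.9-fold higher, at 28.8 ± 6.72 CPM against 1.52 ± 1.58 CPM (adjusted p = 2.35e-06). Cd14, the endotoxin co-receptor, was 17.5-fold higher (adjusted p = 6.29e-10), Steap4, a metalloreductase, 2.05-fold higher (adjusted p = 8.63e-05), and Apcs, the serum amyloid P component, 1.91-fold higher (adjusted p = 0.000677). Fgb, the fibrinogen beta chain, was 1.75-fold lower (adjusted p = 0.000189), Hamp, the iron hormone hepcidin, 2.15-fold lower (adjusted p = 0.000265) and Serpina3m 1.62-fold lower (adjusted p = 0.00213). Among 12 negative acute phase genes none rose and 8 fell, with or without Chow replicate 4, including Ttr (transthyretin, 1.85-fold, adjusted p = 3.95e-05) and Igf1 (1.97-fold, adjusted p = 2.15e-05). Of 10 hepatocyte markers, which share Alb with the negative list, 8 fell and none rose.

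Of 10 cytokines known to induce these genes, 7 were tested and 5 rose, with none falling. Clcf1 was 10.7-fold higher (adjusted p = 1.92e-09). Tnf averaged 2.59 CPM in Vehicle livers and 0.197 CPM in those on chow (adjusted p = 1.62e-07), Lif 2.51 and 0.0880 CPM (adjusted p = 3.24e-07), and Osm 0.669 and 0.0274 CPM (adjusted p = 7.05e-06). No fold is given for Tnf, Lif and Osm, whose Chow levels were at or near the floor of 3 counts. Il6 and Il11 did not pass the filter on low counts, and Il22 had 0 counts in every library, where 3 counts correspond to 0.0607 to 0.124 CPM. Among 7 cytokine receptors 2 rose and 2 fell. Osmr, the oncostatin M receptor, was 4.99-fold higher (adjusted p = 5.22e-07), and Lifr, the leukaemia inhibitory factor receptor, was 5.85-fold lower (adjusted p = 9.77e-06). Il1rap was 2.71-fold lower (adjusted p = 3.25e-06), and Il6ra was at 30.0 ± 4.01 CPM, beside 25.6 ± 6.61 CPM in Chow (adjusted p = 0.165). Of 13 transcription factors and feedback genes 4 rose and 3 fell. Cebpd, a C/EBP factor induced in the acute phase, was 2.88-fold higher (adjusted p = 3.86e-05), Nfkb1 1.37-fold higher (adjusted p = 1.36e-05), and Nr3c1, the glucocorticoid receptor, 1.66-fold lower (adjusted p = 5.21e-06). Stat3 was at 153 ± 21.7 CPM, beside 144 ± 8.86 CPM in Chow (adjusted p = 0.446).

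In SR9009 against Vehicle edgeR called no gene of the pathway lists or the marker lists. Over both kinds of list 20 of 115 (17.4%) had an unadjusted p below 0.05, where the background was 7.28%. Mesothelial markers gave 5 of 7 and hepatocyte markers 3 of 10. The positive acute phase list gave 3 of 20, the negative list 1 of 12 and the transcription factors 3 of 13. Inducing cytokines gave 1 of 7 and cytokine receptors 0 of 7. DESeq2 called 2: Serpina6, which encodes corticosteroid-binding globulin, at a log2 difference of 0.46 (adjusted p = 0.00719), and Pck1, a gluconeogenic enzyme, at -0.79 (adjusted p = 0.0194). With both outlying libraries left out edgeR called 1, Apcs, at 0.65 (adjusted p = 0.0405). The positive acute phase list had a median log2 difference of 0.05, the negative list -0.01, the inducing cytokines -0.01 and the transcription factors -0.11, beside 0.83 for the 10 genes and 0.00 for all tested genes. Medians of marker lists were 1.64 for mesothelial, 1.14 for erythroid, -0.76 for neutrophil, -0.95 for adipocyte and -1.67 for pancreas markers. The adipocyte and pancreas lists each had only 2 tested genes. Nearer 0 were the cholangiocyte markers at 0.25, the hepatocyte markers at -0.16 and the macrophage markers at -0.07. The smallest adjusted p in the positive list was that of C3, at 9982 ± 163 CPM in SR9009 against 7629.7 ± 1041 CPM (adjusted p = 0.379), followed by Apcs, at 225 ± 31.4 and 157 ± 31.6 CPM (adjusted p = 0.388). Stat3 was at 127 ± 6.67 and 153 ± 21.7 CPM (adjusted p = 0.362). Bcl3, a nuclear partner of NF-kB, was at 28.2 ± 5.77 and 39.6 ± 5.61 CPM (adjusted p = 0.362). Mesothelial markers summed to 23.9 to 108 CPM in SR9009 and 8.09 to 50.9 CPM in Vehicle, with none of 7 called and 5 at an unadjusted p below 0.05. Cholangiocyte markers summed to 471 to 1167 and 422 to 992 CPM, with none of 9 called. Adipocyte, erythroid and pancreas markers also had no call, and the adipocyte marker Lep had 0 counts in every library. Their part in the levels of the 10 genes was not tested.

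**Figure D5:**
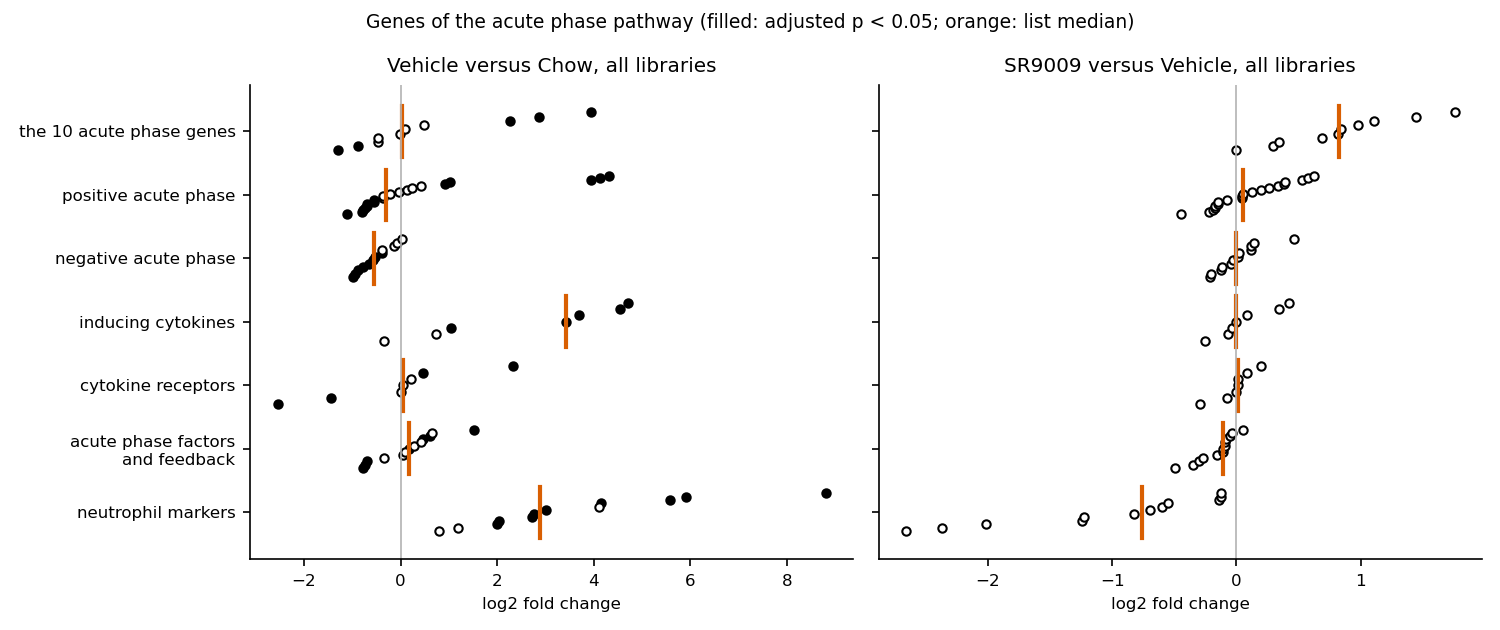
Log2 fold changes of the tested genes of the 10 acute phase genes, the pathway lists and the neutrophil markers in Vehicle versus Chow and SR9009 versus Vehicle, with all libraries; filled points have an adjusted p below 0.05 and orange bars are list medians. In SR9009 versus Vehicle no point is filled, and the medians run from -0.76 for neutrophil markers to 0.83 for the 10 genes; mesothelial and erythroid markers, with higher medians, are not plotted.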

How the data were processed

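Liver RNA-seq counts of 14 libraries (4 Chow, 5 Vehicle, 5 SR9009) were analysed; 15 samples are described, and Chow replicate 5 was not analysed here. The authors deposited a table of raw counts per Ensembl gene identifier, without normalization. The submitters' processing notes name STAR 2.7.11b and GRCm39. Counter, annotation and strandedness were not given in the sources used here, so copies of similar sequence and overlapping genes are uncertain. Symbols came from GENCODE M21, used for names only, and matched 51880 of 57132 identifiers (90.8%).

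The tests were edgeR 4.0.16 under R 4.3.3. After filterByExpr (minimum count 10, minimum total 15), 18181 genes holding 99.9% of counts remained. TMM scaled the libraries, and robust quasi-likelihood tests used all 3 groups, with Benjamini-Hochberg adjustment over all tested genes and a threshold of 0.05. TMM factors were 0.753 to 0.824 in Chow and 1.02 to 1.15 in diet-fed libraries. Standard errors were derived from the quasi-likelihood F, and 95% intervals from its degrees of freedom. The common coefficient of biological variation was 0.211. None of the 26 within-group pairs was a repeat of a library (lowest chi-square per gene 15.3). Tested on simulated data of 18181 genes, the SR9009 versus Vehicle fit found 34.3%, 67.2% and 87.9% of 1.5, 2 and 4-fold changes, and 6.67% of its calls were false. These shares need not hold for the 10 genes, whose standard errors in this comparison ran from 0.139 for Crp to 1.11 for Saa2.

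The 10 genes and all lists were chosen with earlier results of these data known. Besides the 10 genes, the text names up to 4 genes of each list with the smallest adjusted p in Vehicle versus Chow and in SR9009 versus Vehicle, and the 3 genes most similar to Saa1, Saa3, Hp and Crp. Lists are described by counts and medians only. Alternatives were DESeq2 1.42.0, other scalings, other filters, a fit of only the compared groups, a replicate block, a term for the receptor gene class (split at 120 genes of 1985), summed rows of similar genes and leaving out each library. Leaving out Chow replicate 4 and Vehicle replicate 1 together, and Vehicle versus Chow within the libraries with few receptor genes, were added after seeing the data.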

Additional observations from a re-analysis of the deposited data

Results flagged for a closer look

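In CPM, 10 of 30 gene and group combinations held a library whose distance to its nearest neighbour was too large a share of the group's range for Dixon's 95% limit; chance flags about 1 in 20 groups, and the 10 genes vary together, so these are not independent. Of the 10, 7 were Chow replicate 4: Saa1 at 1082 CPM, Saa2 at 428 CPM, Saa4 at 560.0 CPM, Orm2 at 125 CPM, Orm3 at 13.5 CPM, Hp at 8665 CPM and Lcn2 at 82.2 CPM. The other 3 were Vehicle replicate 1: Saa1 at 579 CPM, Saa2 at 305 CPM and Orm2 at 416 CPM. No SR9009 library was singled out in this way for any of the 10 genes.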

How the results depend on the processing

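Saa3, Saa4 and Crp kept their direction and call in Vehicle versus Chow under every alternative tried. Among 732 recomputed values for the 10 genes over the 3 comparisons, 669 kept direction and side of the threshold, 21 lost the call, 16 gained it and 26 changed sign. Leaving out each library in turn moved the number of genes called higher from 2 to 7 in Vehicle versus Chow and from 4 to 7 in SR9009 versus Chow, with 7 in both without Chow replicate 4, and left it at 0 in SR9009 versus Vehicle. It moved all genes called in SR9009 versus Vehicle from 18 to 56, beside 44 with all libraries. Without Chow replicate 4 and Vehicle replicate 1, 7 genes were called higher in Vehicle versus Chow, 2 in SR9009 versus Vehicle and 8 in SR9009 versus Chow. All genes called in SR9009 versus Vehicle numbered 206 with DESeq2, 78 with the receptor class term and 15 with the replicate block; the cause was not tested.

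Apart from the summed orosomucoid rows, signs changed only for values not called with all libraries. In Vehicle versus Chow, leaving out each library moved the log2 fold change of Saa1 from -1.28 to 2.54, of Saa2 from -0.86 to 3.98 and of Hp from -0.093 to 0.84, and that of Saa4 in SR9009 versus Vehicle from -0.15 to 0.11. Saa2 in Vehicle versus Chow was at 0.033 with upper quartile factors, 0.0058 without a low count filter and 0.0086 with only the groups compared. Without both outlying libraries Saa1 was at 1.74 and Saa2 at 3.14, and Saa4 in SR9009 versus Vehicle at 0.11. Orm2 and Orm3 in Vehicle versus Chow became -0.18 when the orosomucoid rows were summed. Omitting the low count filter moved the median of all genes in Vehicle versus Chow from 0.02 to 0.19. DESeq2 gave no adjusted p for Lcn2 in any of the 3 comparisons.

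With the replicate block, Saa1 and Saa2 in Vehicle versus Chow were at 0.78 and 1.88, Saa4 in SR9009 versus Vehicle was at 0.039, and Orm2 in Vehicle versus Chow lost its call (adjusted p = 0.0504). The replicate numbers share no stated source: over 13 same-numbered pairs, deviations from the group means correlated from -0.36 to 0.20, with 3 pairs over 0.1, and 1 library correlated best with its own number. Orm3, the scarcest of the genes by mean level in Vehicle, was above the 3-count floor in every library, and intervals for SR9009 versus Vehicle reached 9.70 for Saa1.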
